A study of Danio rerio with 6 samples.

Results

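Keratin genes and the skin genes icn and icn2 were followed in zebrafish embryos, taken whole 25 hours after fertilization (25 hpf), in prdm1a null mutants and in wild type. Members were the probe sets whose single gene symbol in the platform annotation begins with krt or is cyt1, cyt1l, icn or icn2. The rule found 23 probe sets for 18 genes, among 15502 probe sets that were not array controls. No probe set carried cyt1 or cyt1l alone, and 2 probe sets that carry several symbols of these families are outside the rule. The mutant group comprised 3 RNA samples of embryos that were labelled as prdm1 null mutants and had been picked by eye for their phenotype. The wild-type group comprised 3 RNA samples of embryos picked as normal at the same age. No probe set carried prdm1a, so the arrays give no check of genotype in either group. Whether embryos picked as normal include heterozygotes is not known here. The sources used here name neither the allele nor the number of embryos in a sample, nor whether samples came from separate clutches. The p-values below set each genotype difference against the spread between these samples only. Whether the samples are independent biological replicates is not known here.

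Keratins are the intermediate filament proteins of epithelia. A type I (acidic) and a type II (basic) chain pair to form the filament, and the filaments anchor at desmosomes between cells and at hemidesmosomes on the basement membrane. At this age the fish epidermis is a bilayer, with a superficial periderm over a sheet of basal keratinocytes that express the transcription factor Tp63. The product of prdm1a is a zinc finger protein that regulates transcription and is known from the specification of sensory neurons, neural crest and slow muscle.

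The label "epidermal keratins" covers most but not all of what the rule selected. The genes icn and icn2 encode ictacalcins, small calcium-binding proteins of the S100 family that are abundant in fish skin, and are not keratins. The gene krtcap2 carries the prefix for keratinocyte-associated protein and encodes a subunit of the complex that adds sugar chains to proteins in the endoplasmic reticulum. The keratins krt8 and krt18a.1 are also made in simple epithelia and are not specific to epidermis. As an example of an epidermal marker, tp63 gave signals of 743, 778 and 808 in the mutant and 666, 618 and 712 in wild type, with no overlap. The periderm plakin gene ppl (periplakin) gave 3593, 4499 and 4339 against 3870, 3666 and 4349, with overlap. These examples do not stand for all such genes. Of 19 tested genes for epidermal transcription factors and signals, 8 had a higher mean log2 signal in the mutant and 11 a lower one. Of 21 periderm and cornified envelope genes, 11 were higher by this measure and 10 lower.

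Values are probe set signals made with MAS5, the Affymetrix summary of a probe set's brightness, on a linear scale. Signals of different probe sets are not comparable as amounts of RNA, so each is compared with itself between genotypes. Median signals of the 6 arrays lay between 132 and 148, and the number of arrays limits the precision. Signs of RNA integrity differed between the groups: the ratio of signal at the 3' end to that at the 5' end of the actc1b control was 26.2, 38.8 and 35.8 in the mutant and 55.4, 59.3 and 92.4 in wild type. For the gapdhs control it was 7.08, 7.65 and 3.28 against 9.16, 11.7 and 14.5. Neither ratio overlapped between genotypes (exact two-sided permutation p = 0.1 for each, the smallest that 3 against 3 arrays can give). A fit with either ratio as a covariate therefore cannot fully tell genotype and RNA integrity apart.

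Keratin genes moved in both directions in the mutant, and most did not pass the test. Of the 23 member probe sets, 21 passed the filter on dim signals (a mean log2 signal of at least 5.36), and of these krt17 and krt1-19e fell in the mutant, krt97 and krt1-19d rose, and 17 did not pass an adjusted p of 0.05 (limma, Benjamini-Hochberg over all tested probe sets). Over all 10851 tested probe sets 3.39% passed, 1.54% higher and 1.85% lower. Of the 21 tested members, 11 lay above 0 and 10 below, with a median log2 fold change (mutant minus wild type) of 0.08, beside 0.02 over all tested probe sets, of which 51.6% lay above 0. The groups did not overlap for 8 members, 6 with the mutant above and 2 with the mutant below. Among all tested probe sets 27% did not overlap, 13.2% with the mutant above and 13.8% with it below. The 6 include both krt1-19d probe sets, the dimmer of them separated only by 113 in the mutant against 112 in wild type. These counts leave out the dim probe sets of krt93 and krt95.

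**Figure D1:**
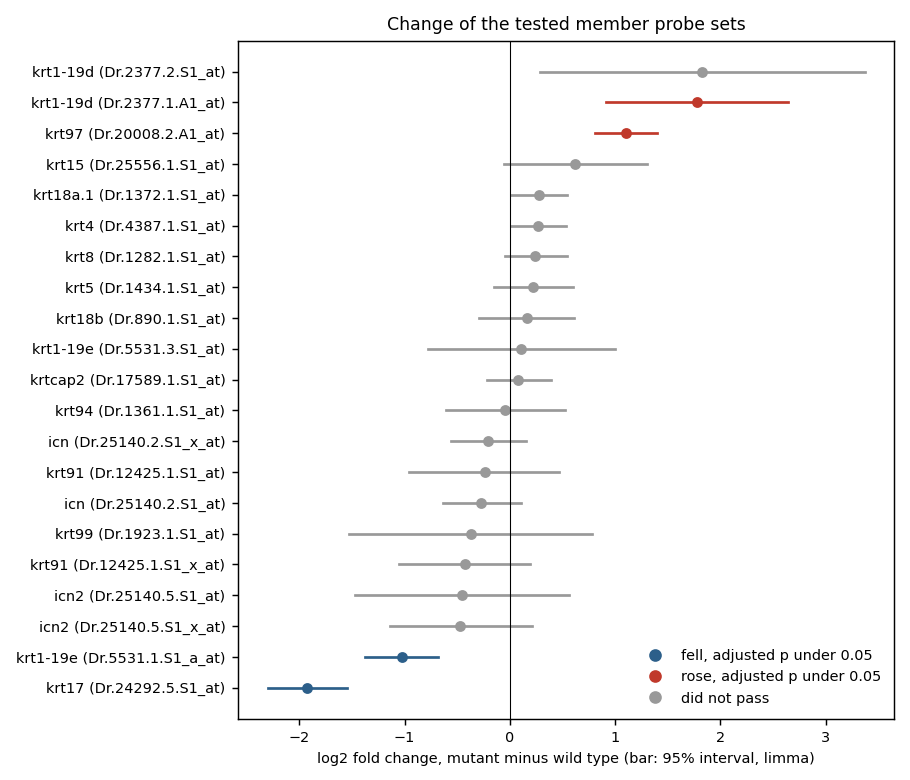
Log2 fold change (mutant minus wild type, x axis) of the 21 tested member probe sets, one per row, with 95% intervals from limma. The 2 probe sets that fell (krt17 and krt1-19e) and the 2 that rose (krt97 and krt1-19d) are coloured, and the intervals of most others cross 0.

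The keratin gene krt17 showed the largest fall among the members. Its signal measured 1567, 2397 and 1834 in the mutant and 7464, 7783 and 6501 in wild type. Every mutant array lay far below every wild-type array. The mean log2 signal was 10.89 ± 0.31 in mutant and 12.82 ± 0.14 in wild-type embryos (mean ± SD of 3 arrays), a 3.80-fold lower level (log2 fold change -1.93, SE 0.17, 95% interval -2.30 to -1.55, limma adjusted p = 0.000659). In RNA of whole embryos, fewer cells of a type and less of a transcript in each cell cannot be told apart. With the gapdhs ratio as a covariate the change was -1.90 and still passed (limma adjusted p = 0.036), and with the actc1b ratio it was -1.80 and did not (limma adjusted p = 0.087).

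The gene krt1-19e, also called krtt1c19e and used as a marker of basal keratinocytes, fell on its brighter probe set. The signals there were 1634, 1184 and 1412 in the mutant and 2813, 2597 and 3206 in wild type, with no overlap. The level was 2.05-fold lower (log2 fold change -1.03, SE 0.16, 95% interval -1.38 to -0.68, limma adjusted p = 0.00928). The other probe set of krt1-19e gave no such difference. It was dim, at 100, 48.8 and 88.4 in the mutant and 112, 58.2 and 52.6 in wild type, and the groups overlapped (log2 fold change 0.11, 95% interval -0.78 to 1.0, limma adjusted p = 0.903). Only the brighter one thus carries the change of krt1-19e. With the gapdhs ratio, then the actc1b ratio, as a covariate its change was -1.02 and -1.08, of like size, and did not pass (limma adjusted p = 0.202 and 0.246).

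The keratin gene krt97 rose in the mutant. Its signal was 5262, 4469 and 4319 in the mutant and 2316, 2266 and 1957 in wild type. Each mutant array was above each wild-type array and both groups were tight, with an SD of the log2 signal of 0.15 and 0.13. The level was 2.15-fold higher (log2 fold change 1.1, SE 0.13, 95% interval 0.81 to 1.40, limma adjusted p = 0.00348). With the gapdhs ratio as a covariate the change was 1.14, and with the actc1b ratio it was 0.71, and neither passed (limma adjusted p = 0.0981 and 0.27).

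The gene krt1-19d also rose, with a wide spread. On its brighter probe set the signals were 786, 672 and 2002 in the mutant and 370, 317 and 224 in wild type. The groups did not overlap, and the third mutant replicate stood far above the other two. The level was 3.43-fold higher (log2 fold change 1.78, SE 0.38, 95% interval 0.91 to 2.64, limma adjusted p = 0.0397). The dimmer krt1-19d probe set gave 113, 121 and 652 in the mutant and 112, 54.2 and 32.4 in wild type. There, too, the third mutant replicate was the brightest, and the change of 1.83 did not pass (95% interval 0.29 to 3.37, limma adjusted p = 0.174).

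The krt1-19d call depended on single arrays. It passed without mutant replicate 2 (limma adjusted p = 0.0419) and ended without mutant replicates 1 and 3 (0.0743 and 0.0566) or wild type replicates 1, 2 and 3 (0.0523, 0.132 and 0.0789). Without mutant replicate 3 the log2 fold change was 1.29. That array had the lowest gapdhs ratio of the 6, and with this ratio as a covariate the change was 0.50 (limma adjusted p = 0.54), with the actc1b ratio 1.38 (limma adjusted p = 0.516). For krt17, krt1-19e and krt97 the call held with each array left out (limma adjusted p up to 0.00802, 0.0439 and 0.0228).

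**Figure D2:**
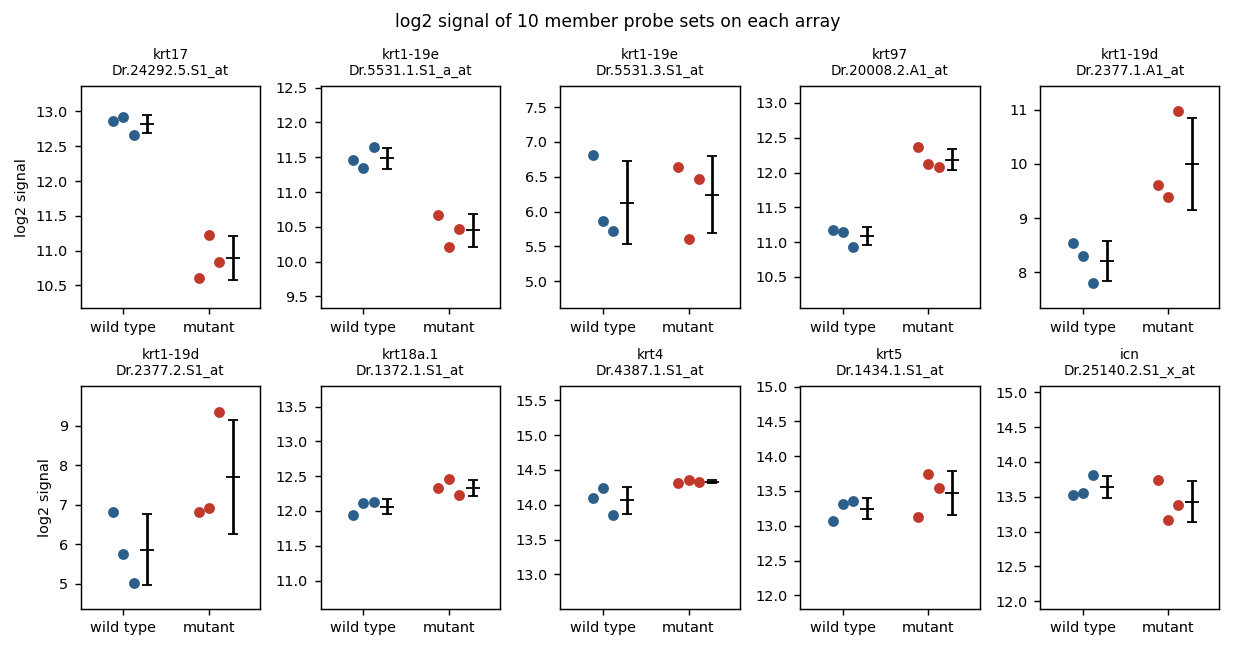
Log2 signal (y axis, its range differing between panels) on each wild-type (blue) and mutant (red) array for 10 member probe sets, with the mean and SD of 3 arrays in black beside the points. The points of krt17, krt97 and the brighter krt1-19e and krt1-19d probe sets do not overlap between genotypes, while those of the dimmer krt1-19e probe set, krt5 and icn do.

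Of the 4 genes that passed, 3 belong to 1 run of neighbours. In the gene order of the RefSeq GRCz12tu assembly, used here for names and order only, krt1-19d, krt1-19e, krt92, cyt1l, cyt1, krt17 and krt91 follow one another with no other protein-coding gene between them. The first of these rose, its direct neighbour krt1-19e fell, krt17 fell, and krt91 at the far end did not pass on either probe set. A probe set that the annotation gives several symbols of these families, and which is therefore no member, gave 20839, 22483 and 19817 in the mutant and 21153, 23290 and 24508 in wild type. Its groups overlapped and its log2 fold change was -0.13 (95% interval -0.36 to 0.11, limma adjusted p = 0.533). The identifier of this probe set shares its leading number with that of krt17 and ends in x_at. Which genes of the run it reads, and whether its signal is near its upper limit, was not tested. The gene krt97 lies elsewhere, between krt222 and krt96. Neighbouring keratin genes can be alike in sequence, and how far a probe set binds the transcript of a neighbour was not tested.

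**Figure D3:**
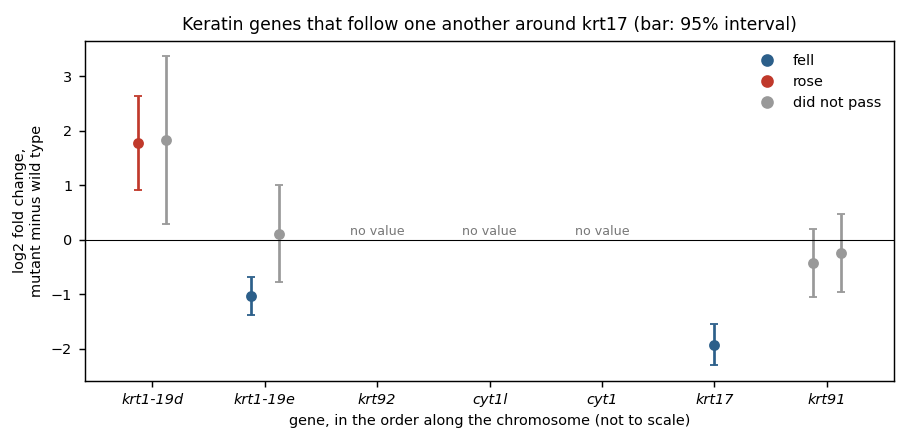
Log2 fold change (mutant minus wild type, y axis, with 95% intervals) of the 7 keratin genes around krt17, in their order along the chromosome (x axis, not to scale). Each point is 1 probe set; krt1-19d lies above 0, the brighter krt1-19e probe set and krt17 lie below 0, and krt92, cyt1l and cyt1 have no value here.

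The keratins of periderm and simple epithelia had slightly higher means in the mutant, and none passed the test. The type II keratin gene krt4, a marker of the superficial epidermal layer, gave 20421, 20951 and 20545 in the mutant and 17473, 19326 and 14847 in wild type. The mutant arrays all lay above the wild-type arrays, by a log2 fold change of 0.27 (95% interval 0.01 to 0.53, limma adjusted p = 0.229). This change was 0.13 to 0.27 under other processing settings and 0.17 to 0.36 without single arrays. With the gapdhs, then the actc1b ratio as a covariate, it was 0.21 and 0.02. On every array krt4 was brighter than at least 99.1% of probe sets, and whether the signal is near its upper limit was not tested. The type II gene krt5 gave 8925, 13743 and 11880 in the mutant and 8586, 10196 and 10431 in wild type, with overlapping groups (log2 fold change 0.22, 95% interval -0.15 to 0.60, limma adjusted p = 0.482). With the gapdhs, then the actc1b ratio as a covariate, the krt5 change was 0.27 and 0.78 and did not pass.

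The partners krt8 and krt18a.1, a type II and a type I chain that pair in simple epithelia, were also separated between genotypes without passing. The signal of krt18a.1 was 5140, 5614 and 4783 in the mutant and 3915, 4446 and 4468 in wild type. The lowest mutant value was above the highest wild-type value, by a small margin (log2 fold change 0.28, 95% interval 0.01 to 0.54, limma adjusted p = 0.229). With the gapdhs, then the actc1b ratio as a covariate, the krt18a.1 change was 0.46 and 0.42 and did not pass. For krt8 the mean log2 signal was 13.04 in the mutant and 12.80 in wild type (log2 fold change 0.24, 95% interval -0.05 to 0.54, limma adjusted p = 0.327). The krt8 change was 0.12 to 0.24 under other processing settings and 0.12 to 0.33 without single arrays. With the gapdhs, then the actc1b ratio as a covariate, it was 0.12 and -0.08. The related type I gene krt18b was at 8.94 and 8.78, with overlap (log2 fold change 0.16, 95% interval -0.29 to 0.61, limma adjusted p = 0.703). Its change was 0.19 with the gapdhs ratio as a covariate and 0.04 with the actc1b ratio. In the fit without covariates, the intervals of these 5 genes leave out any change of more than 0.61 in either direction on the log2 scale. The changes of krt17, krt1-19e, krt97 and krt1-19d in that fit exceed this bound. It does not carry over to the fits with a covariate. There krt5 changed by 0.78 with the actc1b ratio, and krt1-19d by 0.50 with the gapdhs ratio.

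The S100 gene icn2 and the keratin gene krt91 varied widely among mutant arrays, and the S100 gene icn varied less. The brighter icn probe set gave 13711, 9181 and 10643 in the mutant and 11816, 12085 and 14440 in wild type, with overlap (log2 fold change -0.21, 95% interval -0.56 to 0.15, limma adjusted p = 0.5). The spread was wider on the dimmer icn2 probe set, at 4768, 1001 and 2276 in the mutant against 2865, 2903 and 3379 in the wild type (log2 fold change -0.46, 95% interval -1.47 to 0.56, limma adjusted p = 0.611). On all 6 probe sets of these 3 genes mutant replicate 1 was the highest mutant array and mutant replicate 2 the lowest of all 6 arrays. Replicate 1 exceeded replicate 2 by 1.45-fold to 4.76-fold, while the wild-type arrays differed among themselves by 1.18-fold to 1.31-fold. Probe sets whose names end in x_at can bind related transcripts, so icn and icn2 are not fully independent readings.

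The remaining probe sets of these genes did not pass either. The other icn probe set was at 13.12 in the wild type on the log2 scale and changed by -0.27 (limma adjusted p = 0.402). The other icn2 probe set was at 13.03 and changed by -0.47 (limma adjusted p = 0.411). For krt91 the levels in wild type were 10.09 and 9.61 and the changes -0.43 and -0.24 (limma adjusted p = 0.417 and 0.717). Over all tested members the median range of the log2 signal within a genotype was 0.62 in the mutant and 0.34 in wild type, where over all tested probe sets it was 0.41 and 0.46.

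**Figure D4:**
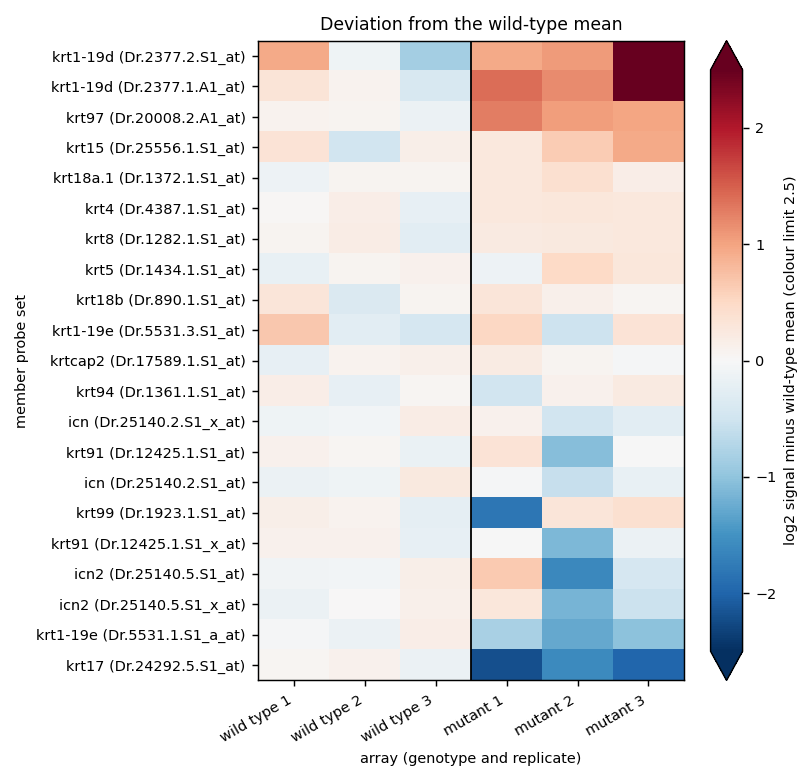
Log2 signal on each array (columns) minus the wild-type mean of the same probe set, for the 21 tested member probe sets (rows, ordered by log2 fold change), on a colour scale that stops at 2.5. The krt17 row is blue on all 3 mutant arrays, the icn2 and krt91 rows are blue mainly on mutant replicate 2, the krt99 row is blue on mutant replicate 1, and the krt1-19d rows are darkest on mutant replicate 3.

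None of the other tested keratin genes passed. The keratin gene krt99 gave 82.4, 355 and 381 in the mutant and 320, 307 and 247 in wild type. Mutant replicate 1 alone was low, and the change of -0.37 had a 95% interval of -1.53 to 0.78 (limma adjusted p = 0.729). In krt15 the mean log2 signal was 7.05 in the mutant and 6.43 in wild type, with overlapping groups (log2 fold change 0.62, 95% interval -0.06 to 1.30, limma adjusted p = 0.281). In krt94 it was 7.31 and 7.35 (log2 fold change -0.05, limma adjusted p = 0.937). The genes krt93, krt94, krt15 and krt99 lie near one another in the same assembly, with krt98, which has no value here, among them. Below the filter, krt93 gave 34.0, 21.1 and 29.0 against 16.5, 19.4 and 36.8, and krt95 gave 5.68, 4.39 and 5.55 against 4.46, 3.11 and 21.9. Both overlapped and neither was tested.

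The oligosaccharide transfer gene krtcap2, picked up by its prefix, was at 11.66 in the mutant and 11.57 in wild type, a change of 0.08 (95% interval -0.22 to 0.39, limma adjusted p = 0.778).

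Genes that regulate or build the epidermis mostly did not pass. Of 19 tested genes for epidermal transcription factors and signals, grhl1 fell and 18 did not pass, with a median log2 fold change of -0.13, beside 0.00 over the 7053 genes tested (3.16% of which passed, 1.49% higher and 1.67% lower). The gene grhl1 encodes an epidermal transcription factor of the Grainyhead family. Its signal was 377, 382 and 329 in the mutant and 586, 599 and 754 in wild type. The groups did not overlap, and the level was 1.78-fold lower (log2 fold change -0.83, SE 0.17, limma adjusted p = 0.0343). The call ended without any single array other than wild type replicate 1 (adjusted p in limma at most 0.12) and with either ratio as a covariate (limma adjusted p = 0.502 for gapdhs and 0.558 for actc1b). The basal keratinocyte regulator tp63 was at 0.22 on its brightest probe set (limma adjusted p = 0.4) and at -0.51 on a dimmer one (limma adjusted p = 0.468), opposite in sign, and neither passed.

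Of 21 genes of the periderm and the cornified envelope none passed in limma (6 had an unadjusted p under 0.05), with a median of 0.06. Over all 7053 genes tested, 1430 (20.3%) had an unadjusted p under 0.05, against which this count and the similar counts in the lists that follow are to be read. The smallest p-values were those of the protease inhibitor gene spint1b (0.89, limma adjusted p = 0.0644) and the S100 gene s100v2 (-0.70, limma adjusted p = 0.113). A dimmer spint1b probe set was picked once its values were known, and its name ends in x_at. It gave 493, 379 and 372 in the mutant and 19.1, 24.1 and 26.7 in wild type. Its wild-type signals lay below the filter level of 41.1. It passed the filter only through its mutant arrays, so its adjusted p is not read as support for a change. The size of its change depended on the offset added before taking logs: 4.15 with none (limma adjusted p = 7.99e-05), 3.45 with an offset of 16 and 2.45 with an offset of 64. The S100 genes s100a10b and s100w, which lie between krtcap2 and icn in the gene order and were likewise chosen after their values were seen, were at 0.19 and 0.52 and did not pass.

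Of 14 genes of desmosomes and other cell adhesion structures, none passed in limma and none had an unadjusted p under 0.05. The median was 0.08, and the values ran from -0.40 for the plakophilin gene pkp1b to 0.37 for the alpha-catenin gene ctnna1; pkp1b and the plakophilin relative pkp4 (-0.35) had the smallest p (limma adjusted p = 0.323 and 0.294). Another probe set of the adhesion gene epcam was picked once its values were known, and its name also ends in x_at. It gave 17.3, 16.7 and 29.5 in the mutant, below the filter level, and 66.3, 89.4 and 126 in wild type. This probe set passed the filter only through its wild-type arrays, so its adjusted p is not read as support for a change. Its change was -2.15 (limma adjusted p = 0.021), -1.54 with an offset of 16 and -0.88 with an offset of 64. It did not pass when mutant replicate 1, mutant replicate 2, wild type replicate 2 or wild type replicate 3 was left out (limma adjusted p = 0.0559 to 0.0995), nor with either ratio as a covariate (limma adjusted p = 0.202 for gapdhs and 0.533 for actc1b). The brightest epcam probe set was at -0.19. Of 5 genes of hemidesmosomes and basement membrane none passed in limma (3 had an unadjusted p under 0.05). The laminin chain gene lamc1 (1.45, limma adjusted p = 0.0514) and the integrin gene itga6b (-1.63, limma adjusted p = 0.0636) lay nearest to the threshold, on opposite sides of 0. Both were dim in one group: lamc1 gave 28.8, 50.6 and 29.2 in wild type, and itga6b gave 79.5, 31.1 and 52.1 in the mutant. With an offset of 64 the changes were 0.68 and -0.93. The mean log2 signal of lamc1 in wild type, 5.13, lay below the filter level. The lamc1 probe set passed the filter only through its mutant arrays, so its adjusted p-values are not read as support for a change. Apart from left-out arrays and covariates, the lamc1 change passed under 6 of 10 alternative settings of the probe set fit (limma adjusted p down to 0.04). Among these settings the itga6b change passed only with array weights (limma adjusted p = 0.0136). In the separate fit that averaged the probe sets of each gene, both genes passed (limma adjusted p = 0.0389 for lamc1 and 0.0485 for itga6b). Neither passed with any single array left out (limma adjusted p = 0.0686 to 0.144 for lamc1 and 0.0546 to 0.191 for itga6b). With the gapdhs, then the actc1b ratio as a covariate, neither passed (limma adjusted p = 0.449 and 0.46 for lamc1, 0.523 and 0.497 for itga6b).

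Among 7 other intermediate filament genes none passed in limma (3 had an unadjusted p under 0.05). The muscle filament gene desma was at 0.55 (limma adjusted p = 0.0807) and the lamin gene lmnb1 at -0.58 (limma adjusted p = 0.0961). The neuronal filament gene prph gave 73.5, 56.0 and 59.2 in the mutant and 163, 108 and 102 in wild type on its brightest probe set, with no overlap (-0.96, limma adjusted p = 0.102). Its next probe set, picked once its values were known, gave 48.5, 46.2 and 35.6 against 181, 165 and 138. That change was -1.90 (limma adjusted p = 0.00629) and -1.07 with an offset of 64. It did not pass without wild type replicate 2 (limma adjusted p = 0.0506) or with either ratio as a covariate (limma adjusted p = 0.183 for gapdhs and 0.156 for actc1b).

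Markers of other cell types were read beside the keratins. Of 7 ionocyte genes, the sodium pump subunit gene atp1b1b fell 5.06-fold, from 1090, 1147 and 881 in the wild type to 132, 285 and 227 in the mutant (log2 fold change -2.34, limma adjusted p = 0.00334), and 6 did not pass. With a ratio as a covariate the atp1b1b change was -2.53 for gapdhs and -1.96 for actc1b and did not pass (limma adjusted p = 0.0753 and 0.231). Of 4 hatching gland genes agr2 rose, from 887, 910 and 1235 in wild type to 4630, 4958 and 5029 in the mutant (log2 fold change 2.28, limma adjusted p = 0.000123), and 3 did not pass. With a ratio as a covariate the agr2 change was 2.38 for gapdhs and 2.79 for actc1b and passed (limma adjusted p = 0.0109 and 0.0086). The others were klf17 (-0.35), cd63 (0.11) and xbp1 (0.01). The he1 genes and ctslb, also on that list, were not tested, so agr2 alone does not stand for the gland. None of 7 notochord genes passed in limma (2 had an unadjusted p under 0.05), with col9a2 at 0.77 and col2a1a at 0.60 (limma adjusted p = 0.0564 and 0.0706). The part of these cell types in the keratin values was not tested.

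**Figure D5:**
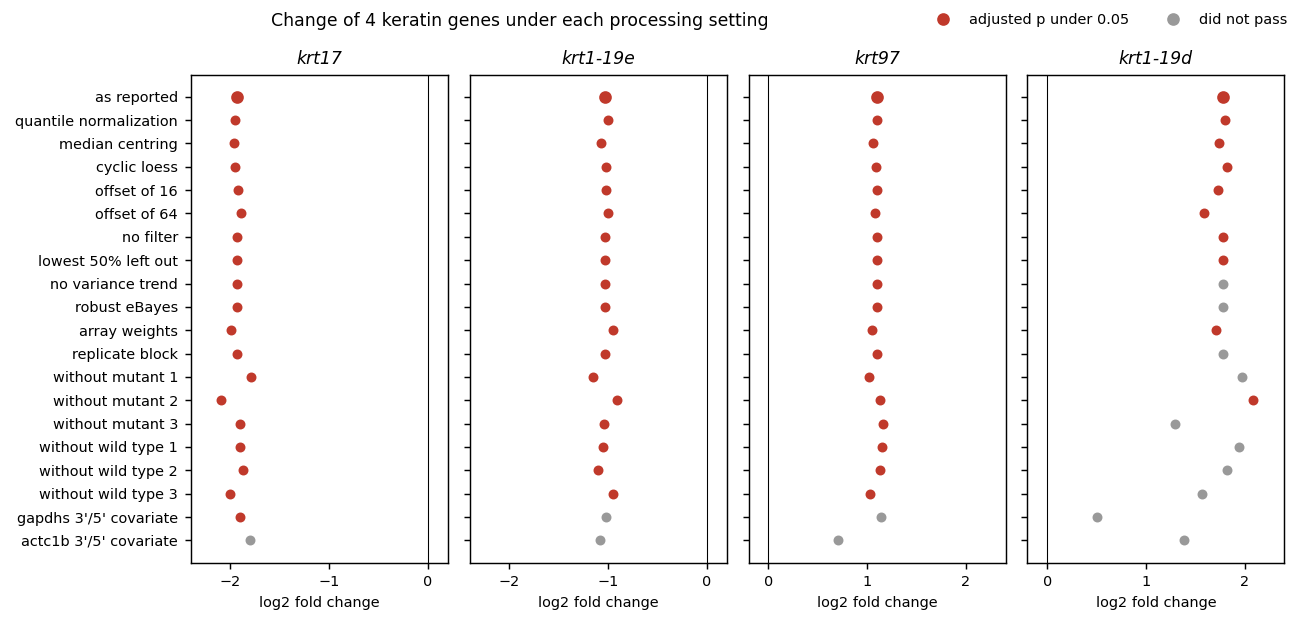
Log2 fold change (mutant minus wild type, x axis) of krt17, krt1-19e, krt97 and krt1-19d (brighter probe sets) as reported and under each of the other processing settings (rows), red where the adjusted p was under 0.05 and grey where it was not. No point crosses 0; krt1-19d turns grey under most left-out arrays, and all 4 genes are grey with the actc1b ratio as a covariate.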

How the data were processed

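RNA of 6 samples, 3 per genotype, was hybridised to Affymetrix arrays of 15617 probe sets. The deposited values are intensities on a linear scale, made by the authors with MAS5 per the submitters' processing notes. The sources used here give neither its version nor detection calls. Values were log2-transformed without further scaling. Without the 115 array controls, the dimmest 30% by mean log2 signal were left out (4651 probe sets, below a signal of 41.1). The other 10851 were tested in R 4.3.3 by limma 3.58.1 with a variance trend in eBayes and a single term for genotype. Calls were made at 0.05 after Benjamini-Hochberg adjustment across those 10851. The fit was tried on simulated data with independent normal noise and known changes added. The simulation held no difference in RNA integrity between the groups, so it does not bear on that limit. Other genes were read from their brightest named probe set. All 23 members matched RefSeq GRCz12tu by gene ID. Every member is accounted for. Values on all arrays are given for members past the threshold, then those with the smallest p up to 6, the 3 of highest wild-type level and genes whose probe sets disagree. Other lists name up to 4 genes past the threshold or the 2 with the smallest p, by log2 fold change. Further genes, probe sets and array values were added after they were seen. Members and lists were chosen with earlier results of these data known. No value is given for prdm1a, which no probe set carried. Alternatives were other normalizations, offsets, filters, variance models, array weights, a replicate block, left-out arrays and covariates for the 3' over 5' ratios. Figures were drawn with matplotlib 3.10.9.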

Additional observations from a re-analysis of the deposited data

How the results depend on the processing

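Of the 23 member probe sets, 21 were tested, and the 4 calls (2 higher, 2 lower) numbered 3 or 4 under every other normalization, offset, filter and variance model, and 3 to 4 without single arrays. They fell to 1 (krt17) with the gapdhs 3' over 5' ratio as a covariate and to 0 with the actc1b ratio. Over all probe sets 44 and 26 passed in these fits, against 368. Both ratios separated the genotypes, so these fits cannot fully tell genotype and RNA integrity apart. Among genes of the other lists 3 passed, 5 with an offset of 64, 17 with array weights (1416 of all probe sets), 9 when the probe sets of a gene were averaged, 1 with either covariate, and 2 to 5 without single arrays (5 without wild type replicate 3). The krt1-19d call also ended without the variance trend (limma adjusted p = 0.0838) and in the robust fit (0.0574). Causes of these differences were not tested. Samples that share a replicate number did not deviate together (correlations 0.0613, 0.0523 and -0.0749), so the number is taken as a name only. With it as a replicate block 3 members passed (1 higher, 2 lower) and 2 list genes, against 260 probe sets in all. No named value past the threshold in either fit changed sign under any alternative run. The dim probe sets of krt93, krt95, krt1-19e and krt1-19d limit what can be read from them.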

Other observations

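A probe set to which the annotation gives no gene, noticed because its identifier shares a leading number with those of icn and icn2, gave signals of 6275, 5992 and 2489 in the mutant and 30.6, 23.4 and 13.4 in the wild type. Other probe sets with that leading number carry the symbols dnaja2a, cd81a, pcp4a and epcam, so the number does not tie it to icn. Its identifier differs only in the ending from that of the brightest epcam probe set, whose log2 fold change was -0.19. Whether the unnamed probe set reads an epcam transcript was not tested. It was chosen after its values were seen, its wild-type signals lie below the filter level of 41.1, and what it measures is not known here.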
